A study of Rattus norvegicus with 18 samples.

Results

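Fabp3, Fabp4, Fasn and Lpl are 4 genes of fatty acid handling, each represented by 1 of the 2304 clones on a spotted rat cDNA array. They were chosen by gene symbol, but with their values in these data known: these included the lower ratio of Fabp3 after ischemic injury and the ratios of Fasn among control rats. Their ratios are therefore given as a description. Where a threshold is mentioned for one of them in ARF minus sham or among sham rats, it describes the clone's place in a fit over all clones and supports nothing.

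The study compared whole kidneys of 6 sham-operated rats with those of 6 rats whose kidneys had gone through 52 min of ischemia followed by reperfusion and then recovered for 35 days. The latter are called ARF rats here, for acute renal failure. Strain, sex and age are not given in the sources used here. Each ARF rat was paired with 1 sham rat (pairs A to F) on 2 arrays with the dyes exchanged, and 6 further arrays (R1 to R6) set sham rats against each other.

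A value is the log ratio of the channels of an array, and a pair value is the mean of its 2 arrays. Neither the log base nor the direction of the ratio is stated. The ratios are read as ARF minus sham, and on R1 to R6 as channel 2 minus channel 1. These are separate assumptions. If either were reversed, the signs of the values it covers would turn. If only 1 were, comparisons of sign between the pairs and R1 to R6 would turn as well. Whole kidney RNA was measured, so a lower ratio can come from fewer cells of a type or from less RNA per cell, which cannot be told apart.

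Long-chain fatty acids are a main fuel of the kidney tubule. They reach cells bound to albumin or in lipoprotein triglycerides, which lipoprotein lipase (Lpl) splits at the capillary wall. Inside the cell, small binding proteins carry them through the cytosol: Fabp3, the heart type, is also made in kidney tubules, and Fabp4, the adipocyte type, also occurs in capillary endothelium and macrophages. Fatty acid synthase (Fasn) is the multienzyme that builds palmitate from acetyl and malonyl units with NADPH.

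Fabp3 was the member with a ratio of the same sign in every pair. For that reason the 250 bases before its start site are shown, from RefSeq on GRCr8, chr5:147935875-147936124, plus strand; Fabp4, Fasn and Lpl had no entry in the promoter table. Capitals mark a TATA-like match, TATTTAA.

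Fabp3: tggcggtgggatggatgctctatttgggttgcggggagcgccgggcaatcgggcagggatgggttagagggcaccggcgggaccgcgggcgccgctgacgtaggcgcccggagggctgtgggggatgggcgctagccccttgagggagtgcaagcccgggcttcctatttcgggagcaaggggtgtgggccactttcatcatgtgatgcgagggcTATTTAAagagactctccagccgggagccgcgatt

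The match begins at position -35 from the start site, on the gene's strand. TATTTAA was searched after the sequence had been read, and 4.13% of 27457 promoter windows of this length hold it on either strand. TATAAA (13.1% of windows), CCAAT (34.3%), CACGTG (5.79%) and GGGCGG (32.4%), searched on both strands, were not found in this window. Its GC content is 65.6%, against a median of 52.0% over all windows.

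Fabp3 was measured on all 12 ARF-sham arrays. Its pair values were -0.40 in A, -0.36 in B, -0.40 in C, -0.15 in D, -0.17 in E and -0.36 in F, with a mean of -0.31 ± 0.12 (SD, n = 6 pairs). Thus 4 pairs lay close together between -0.40 and -0.36, and pairs D and E were nearer to 0. Read as ARF below sham, the mean corresponds to 1.24-fold if the log base is 2. With base 10 it would be 2.03-fold, and with natural logarithms 1.36-fold. The spread between pairs was small for this array: the SD was lower in 24.6% of the 947 clones tested.

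The 12 single arrays all gave Fabp3 below 0. With sham in Cy3 the values ran from -0.30 in pairs C and F to -0.01 in pair D, with a mean of -0.19. With sham in Cy5 they ran from -0.56 in pair A to -0.29 in pairs D and E, with a mean of -0.43. In each pair the array with sham in Cy5 was the lower, so the size of the difference depended on the dye orientation and only its sign did not.

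Of the 4 members, Fabp3 was among the 9 of 947 clones (0.950%) past an adjusted p of 0.05 for ARF minus sham (limma over all clones, Benjamini-Hochberg); since this contrast was known when the members were chosen, nothing is read from that count. Among clones measured in all 6 pairs, 5.17% had every pair below 0. With 1 pair left out at a time, Fabp3 passed without pair D and in none of the other 5 fits, while its mean stayed between -0.34 and -0.29.

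**Figure D1:**
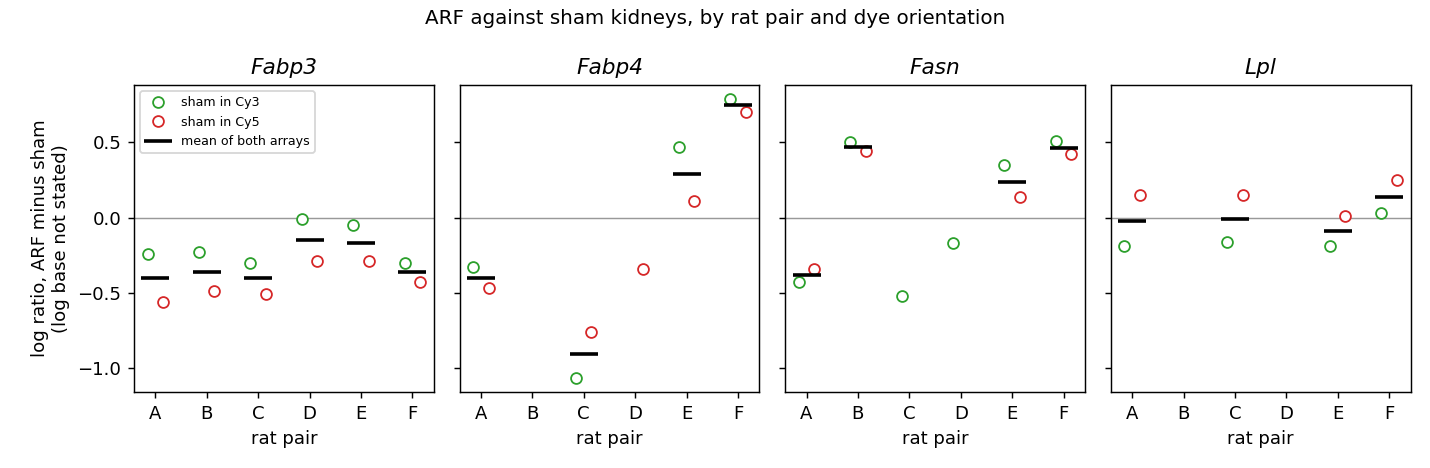
Log ratio, ARF minus sham, for each rat pair (x axis) of Fabp3, Fabp4, Fasn and Lpl; circles are single arrays (green, sham in Cy3; red, sham in Cy5) and black bars the mean of both arrays. The bars of Fabp3 lie between -0.40 and -0.15 in all 6 pairs, and those of Fabp4 run from -0.91 to 0.75. The Lpl circles lie on either side of 0 in pairs A, C and E and both above 0 in F. Pairs with no bar were measured on 1 array or none.

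Fabp4 had both arrays in 4 pairs and differed in sign between them. It was -0.40 in A, -0.91 in C, 0.29 in E and 0.75 in F, with a mean of -0.07 ± 0.73 (SD, n = 4). The sign of this mean turned with the pairs included, from -0.34 without F to 0.21 without C, and it was 0.04 without A. The single array of pair D with a value gave -0.34, and pair B had none. The ARF rat thus read lower in A and C and higher in E and F. The arrays of a pair had the same sign, with -0.33 and -0.47 in A, -1.07 and -0.76 in C, 0.47 and 0.11 in E, and 0.79 and 0.70 in F. In E they differed by more than the pair value itself. The SD over pairs was larger than that of 99.6% of the tested clones, whose median SD was 0.17.

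Fasn also divided the pairs. It was -0.38 in A, 0.47 in B, 0.24 in E and 0.46 in F, with a mean of 0.20 ± 0.40 (SD, n = 4), and its SD exceeded that of 96.1% of the tested clones. Pairs C and D had 1 array each, with sham in Cy3, at -0.52 and -0.17; with these included the mean was 0.02 (n = 6). The arrays of a pair lay close, at -0.43 and -0.34 in A and at 0.51 and 0.42 in F. The exception was pair E with sham in Cy5, where the 2 spots of the clone read -0.28 and 0.55. Fabp4 and Fasn had the same sign in each of the 5 pairs with values for both genes on at least 1 array: below 0 in A, C and D and above 0 in E and F. Those values come from the same rats, so they are not independent of one another. In A, C, E and F they also share arrays. In D the genes were read on different arrays, Fabp4 on 1 spot. How often other clones match in sign in this way was not counted.

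A clone with pair values past 0.2 on both sides of 0, as Fabp4 and Fasn had, was common: 23.9% of the tested clones did. Neither gene belonged to the 9 clones that passed for ARF minus sham.

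Lpl averaged 0.00 ± 0.09 (SD, n = 4), with -0.02 in A, -0.01 in C, -0.09 in E and 0.14 in F, and no values in B and D. Behind this mean the dye orientations disagreed. With sham in Cy3 the ratios were -0.19, -0.16, -0.19 and 0.03 (mean -0.13), and with sham in Cy5 they were 0.15, 0.15, 0.01 and 0.25 (mean 0.14). The sign of a single-dye comparison of Lpl would therefore follow the dye.

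The dye effect, taken per pair as the value with sham in Cy3 minus that with sham in Cy5, divided by 2, was not used in choosing the members and was tested over all 947 clones. Fabp3 had a dye effect of 0.12 ± 0.03 (SD, n = 6), above 0 in 6 of 6 pairs, and passed (limma, adjusted p = 0.0245), as did 16.1% of the clones. It lost the threshold without pair C (adjusted p = 0.05), D (0.0727) or E (0.0694), at the same mean. Lpl had -0.13 ± 0.03 (n = 4), below 0 in 4 of 4 pairs, and did not pass (adjusted p = 0.0516). Fabp4 had 0.04 ± 0.14 and Fasn 0.03 ± 0.06 (n = 4 each; adjusted p = 0.687 and 0.578). A positive effect means a higher reading in Cy5 under the assumed direction. It cancels in a pair value and does not cancel on R1 to R6, which have no swapped partner.

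The values on R1 to R6 were read after the exchange of row blocks described under the processing; in the deposited row order Fabp3 had values on 2 of them and the other members on none. These arrays set kidneys without injury against each other. Fabp3 read 0.07 on R1, 0.18 on R2, 0.25 on R3, 0.28 on R4, 0.05 on R5 and 0.19 on R6. All lay above 0, as did its dye effect. The labels give no dyes for these arrays, while on the ARF-sham arrays channel 2 was Cy5 throughout. If channel 2 was Cy5 on R1 to R6 too, subtracting 0.12 leaves values from -0.07 to 0.16, 2 below 0 and 4 above. The pairs had sizes of 0.15 to 0.40, and how many lay within the largest sham-sham size depended on this assumption: 1 pair with the subtraction (largest size 0.16), 2 pairs with the values as deposited (0.28), and 5 pairs if channel 2 was Cy3 (0.40).

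Fasn had ratios of a larger median size among sham rats than over the pairs. A sham-sham value rests on 1 array without a swapped partner, and a pair value on 2 arrays. These sizes are therefore not measured alike. Fasn read -0.83 on R1, -0.97 on R2, -0.14 on R3, -0.80 on R4, -0.45 on R5 and -0.38 on R6. The median size was 0.62, against 0.42 for the 4 pairs with both arrays, which leaves out C and D. Fabp4 read -0.75 on R1, -0.07 on R2, -0.50 on R4, -0.73 on R5 and -0.49 on R6, with no value on R3; here the median size was 0.50, against 0.57 for the pairs. Lpl read -0.13 on R1, -0.13 on R2, -0.18 on R3, -0.56 on R4, -0.67 on R5 and -0.15 on R6. Less its dye effect, on the assumption that channel 2 was Cy5, Lpl was between -0.05 and 0.01 on 4 arrays and stood apart on R4 (-0.43) and R5 (-0.54), the arrays of sham rats B with D and C with F.

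**Figure D2:**
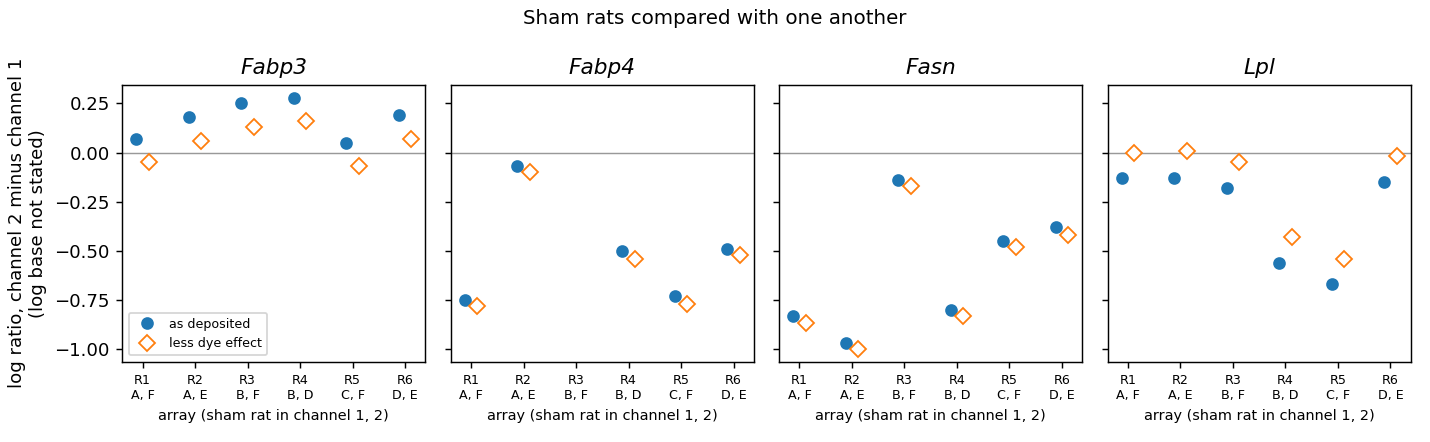
Log ratio, channel 2 minus channel 1, on the 6 arrays of sham rats against sham rats (x axis, with the rat in channel 1 and in channel 2); filled circles are the deposited values and open diamonds the same less the gene's dye effect. Fabp4 and Fasn stay below 0 on every array with a value. After the subtraction, which assumes that channel 2 was Cy5, Fabp3 falls on both sides of 0 and Lpl is near 0 except on R4 and R5. Without it, every Fabp3 value is above 0 and every Lpl value below 0.

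Fabp4, Fasn and Lpl were thus below 0 on every sham-sham array that measured them, before any dye effect was subtracted. Of 857 clones with values on at least 4 of these arrays, 11.6% had every value below 0 and 18.6% had 1 sign throughout. In the fit of these arrays 2.80% of the clones passed (24 of 857; limma, adjusted p under 0.05), among them Fabp4 and Fasn, whose values here were known when the members were chosen. Without R4 or without R5 no clone passed, at 138 and 152 clones with an unadjusted p under 0.05. Fabp4 passed in the other fits that left out 1 array, and so did Fasn. The 6 arrays share rats, rat F being on 3 of them, so they are not 6 independent animals.

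A loop through 5 of the sham rats gives a check within these arrays. The step from rat A to rat E was measured directly on R2 and can also be added up through F, B and D from R1, R3, R4 and R6. For Fabp3 the direct step was 0.18 and the summed one 0.28, a misfit of 0.10. For Fasn they were -0.97 and -1.88, a misfit of -0.91, larger in size than that of 93.6% of the 466 clones with values on all 5 arrays. Lpl had -0.13 and -0.66, a misfit of -0.54 (larger in size than 77.7%). Over those clones the misfit had a median of 0.18 and an SD of 0.44. The misfit was thus smaller in size for Fabp3 than for Fasn, whose steps were also larger. It is 1 value per gene from 1 loop. A dye effect enters the misfit once, and that of Fasn was 0.03.

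The ARF-sham pairs contain the same sham rats, so the difference between pairs can be set beside the sham-sham array of their sham rats. A difference of pair values holds the difference of the sham rats and also that of the ARF rats. Whether the signs of both sources match rests on both assumed directions. For Fasn, pair A minus pair F was -0.85 beside -0.83 on R1. Pair A minus pair E was -0.63 beside -0.97 on R2, and pair B minus pair F was 0.01 beside -0.14 on R3. On R3 both values were near 0 and on R1 and R2 both were clearly below it. With a single array for pair C or D, the differences were -0.98 beside -0.45 on R5, -0.42 beside -0.38 on R6 and, with the opposite sign, 0.64 beside -0.80 on R4.

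For Fabp4 the pair differences were larger than the sham-sham values. Pair A minus pair F was -1.15 beside -0.75 on R1, and pair A minus pair E was -0.69 beside -0.07 on R2. Pair C minus pair F was -1.66 beside -0.73 on R5, and pair D, on 1 array, minus pair E was -0.63 beside -0.49 on R6. All had the same sign in both sources. For Lpl the pair difference was -0.16 beside -0.13 on R1, 0.07 beside -0.13 on R2 and -0.14 beside -0.67 on R5. For Fabp3 they ran from -0.23 to 0.02 and were not ordered like the array values.

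**Figure D3:**
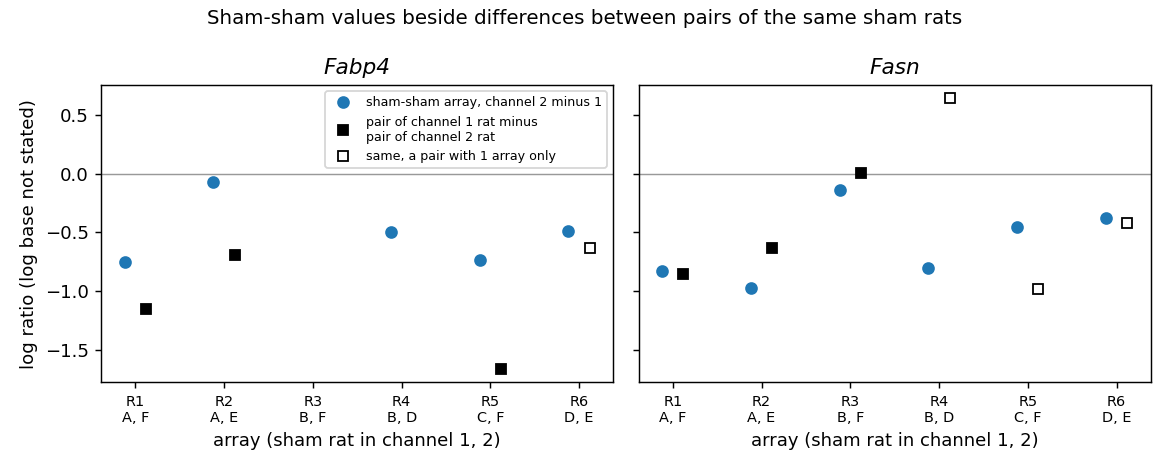
Fabp4 and Fasn on each sham-sham array (blue circles, channel 2 minus channel 1) and the pair value of the channel 1 rat minus that of the channel 2 rat (squares; open where a pair had 1 array); the y axis is a log ratio. For Fasn the markers nearly coincide on R1 (-0.83 and -0.85) and R6 (-0.38 and -0.42) and oppose each other on R4 (-0.80 and 0.64).

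**Figure D4:**
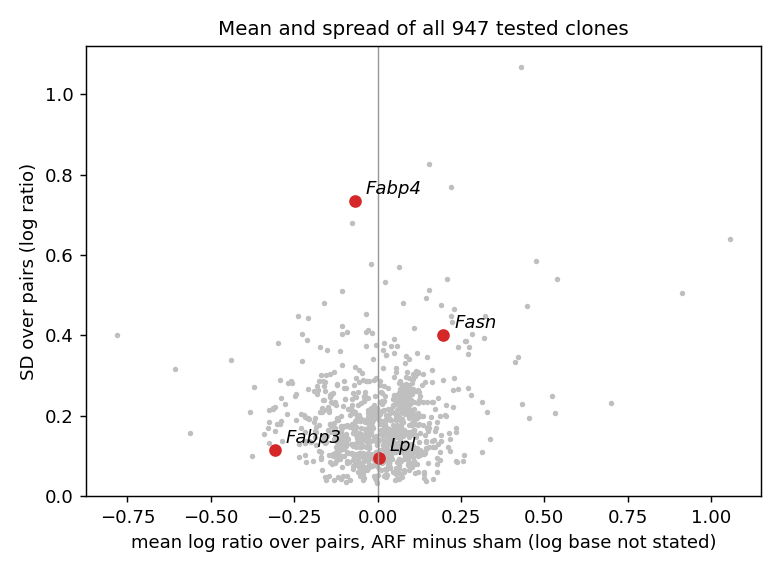
Mean (x axis) and SD (y axis) of the pair log ratios for all 947 tested clones (grey) and the members (red). Fabp3 combines a low mean of -0.31 with an SD of 0.12, while Fabp4 (SD 0.73) and Fasn (SD 0.40) lie high with means nearer to 0.

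Detection set a limit for Fabp4 and Lpl. Fabp3 had values on 12 of the 12 ARF-sham arrays, Fasn on 10, Fabp4 on 9 and Lpl on 8. The missing values fell in pairs B, C and D, whose arrays held 1586 to 2003 of 4608 spots, against 2224 to 2786 for pairs A, E and F. The fit counted only pairs with both arrays, so Fabp4, Fasn and Lpl rest on 4 pairs each.

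The cells behind these genes were looked at through marker genes of the array. Tubule markers were well covered, with 12 of 20 listed genes on the array and all 12 tested. Of these, 10 had a mean below 0, with a median of -0.21 and pair medians between -0.30 and -0.02. One passed, the growth factor Egf (-0.34, below 0 in 6 of 6 pairs, limma adjusted p = 0.0482), and 7 of 12 had an unadjusted p under 0.05, against 14.7% of all tested clones (139 of 947). Slc12a3 (0.12) and Aqp3 (0.05) had means above 0. Most tubule markers thus lay below 0 as Fabp3 did, and their part in its ratio was not tested. Of 17 adipocyte markers 6 were on the array: Fabp4 and Lpl themselves, Scd, Slc2a4, Lipe and Pparg. Pparg, the regulator of fat cell formation, had no value on any ARF-sham array, and Lipe, the hormone-sensitive lipase, had values on 3. The insulin-responsive glucose carrier Slc2a4 was 0.31 in A, -0.22 in C, -0.30 in E and -0.16 in F, opposite in sign to Fabp4 in 3 of these 4 pairs, and -0.32 in D, of the same sign. The desaturase Scd was 0.10 in C, 0.15 in E and -0.02 in F, and -0.77 in A on 1 array, with the sign of Fabp4 in A and E. Lipe was 0.13 in E and 0.19 in C on 1 array, with the sign of Fabp4 in E. Kdr, an endothelial receptor, was 0.14 in A, -0.29 in E and -0.15 in F, each opposite in sign to Fabp4, and on 1 array -0.45 in D, of the same sign. Among macrophage genes, Lgals3 was 0.79 in A, -0.52 in C, 0.48 in E and 0.98 in F, and 0.07 in D on 1 array. The class II gene RT1-Ba was 0.37 in A, 0.25 in C, 0.11 in D, -0.22 in E and 0.54 in F. Other macrophage genes went other ways. Lyz2 was 0.27 in A, -0.74 in E and -0.56 in F, and on 1 array each 0.14 in C and -0.85 in D. Ctss was 0.73 in A, -0.13 in E and 0.38 in F, and on 1 array each -0.09 in C and -0.20 in D. Fcgr2a was 0.27 in A, 0.27 in E and 0.12 in F, and on 1 array each 0.01 in C and 0.03 in D. Cd74 had values on 2 arrays. Over 3 tested macrophage genes the pair medians ran from -0.14 to 0.54. Ratios hold no levels, so the amounts of these cell types are unknown, and their part in the values of Fabp4, Fasn and Lpl was not tested.

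The wider fatty acid pathway was described through lists of 136 other genes, of which 54 were on the array and 31 were tested. Of these, 24 had a mean below 0 and the median was -0.12, against 435 of 947 clones below 0 and a median of 0.02 over all tested clones. One passed for ARF minus sham: Dbp, a clock-controlled regulator of metabolic genes (-0.33 ± 0.13, n = 6 pairs, limma adjusted p = 0.0482).

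Among genes of fatty acid binding and uptake 7 were tested, with a median of -0.12. Of these 1 passed, Fabp3 itself (limma, 0.950% over all tested clones). An unadjusted p under 0.05 was found for 2 of 7, Fabp3 among them (limma, 14.7% over all tested clones). Fabp3 was chosen with this contrast known, so nothing is read from these counts. The other gene under 0.05 was Slc27a2, an acyl-CoA synthetase and carrier of the proximal tubule. It had the same mean as Fabp3 but a wider spread (-0.31 ± 0.22, n = 6, limma adjusted p = 0.0979). Slc27a2 lay below 0 in 5 of 6 pairs, from -0.64 in F to 0.03 in B. Dbi, the acyl-CoA-binding protein, had -0.15 ± 0.21 and the epidermal-type binding protein Fabp5 -0.12 ± 0.16 (each n = 6, adjusted p = 0.431). The carrier Slc27a1 had 0.06 ± 0.09 (n = 6, adjusted p = 0.612). The 3 binding proteins with values for at least 4 pairs thus had means of -0.31, -0.07 and -0.12, and Fabp3 was the one with all pairs on 1 side.

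The other genes of fatty acid and triglyceride synthesis had the sign of Fasn in some pairs and the opposite sign in others. None of the 5 tested passed for ARF minus sham (limma), and none had an unadjusted p under 0.05. Acly, which makes the acetyl-CoA that Fasn uses, was 0.26 in A, -0.42 in D, 0.04 in E and 0.02 in F, and -0.03 in C on 1 array. It had the sign of Fasn in C, D, E and F and the opposite sign in A, where Fasn was -0.38. The desaturase Scd2 was 0.49 in A, 0.38 in B, -0.28 in C, -0.45 in D, -0.15 in E and 0.31 in F. Its sign was opposite to that of Fasn in A and E and the same in B, C, D and F. Idh1, a source of NADPH, had -0.23 ± 0.40 (n = 6, adjusted p = 0.445) and the thioesterase Acot1 -0.09 ± 0.14 (n = 6, adjusted p = 0.502).

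Among sham rats 6 synthesis genes were tested and 2 passed below 0: Fasn and, named after its values were seen, Me1. Over all clones 1.98% passed below 0 (17 of 857), and the values of Fasn here were known when it was chosen. Me1, the malic enzyme that supplies NADPH, read -0.10, -0.39, -0.35, -0.46, -0.33 and -0.06 on R1 to R6 (mean -0.28, limma adjusted p = 0.0443). It passed in 2 of the 6 fits that left out 1 array, those without R1 and without R6. For Me1 too, the rats and the channel they were in cannot be told apart. Acly had -0.27, -0.31, 0.09, -0.46, 0.12 and -0.17 and did not pass (adjusted p = 0.217). In the ARF-sham pairs Me1 was -0.22 in C, -0.59 in E and -0.46 in F, and on 1 array each 0.42 in B and -0.05 in D. Its sign was opposite to that of Fasn in E and F and the same in B, C and D.

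Fatty acid activation and oxidation genes had 18 tested members, of which 16 had a mean below 0, with a median of -0.12. None passed (limma), and 6 of 18 had an unadjusted p under 0.05, against 14.7% of all tested clones. Hadhb, a subunit of the trifunctional protein, had -0.27 ± 0.20 and the hydratase Echs1 -0.19 ± 0.09 (each n = 6, adjusted p = 0.129). Acsl1, which activates fatty acids, had -0.22 ± 0.13 (n = 5, adjusted p = 0.174) and Cpt1a, which admits them to the mitochondrion, -0.20 ± 0.19 (n = 6, adjusted p = 0.224). Echs1 was below 0 in 6 of 6 pairs and Acsl1 in 5 of 5, as Fabp3 was in its 6.

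Of 4 lipid regulators tested, 2 had a mean below 0 and 2 above. Dbp passed, beside 9 of 947 clones in all, and 3 had an unadjusted p under 0.05 (limma; 139 of 947 clones in all). Nr1d1, a clock repressor, had -0.38 ± 0.10 (n = 4, adjusted p = 0.0546), and Ucp2, a mitochondrial carrier induced by fatty acids, had 0.33 ± 0.21 (n = 5, adjusted p = 0.102). Nr1h2, a sterol receptor, had 0.07 ± 0.12 (n = 5, adjusted p = 0.651). In cholesterol synthesis only Dhcr7 could be tested (0.17 ± 0.14, n = 4, adjusted p = 0.374), and no gene of lipolysis and lipid droplets could.

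**Figure D5:**
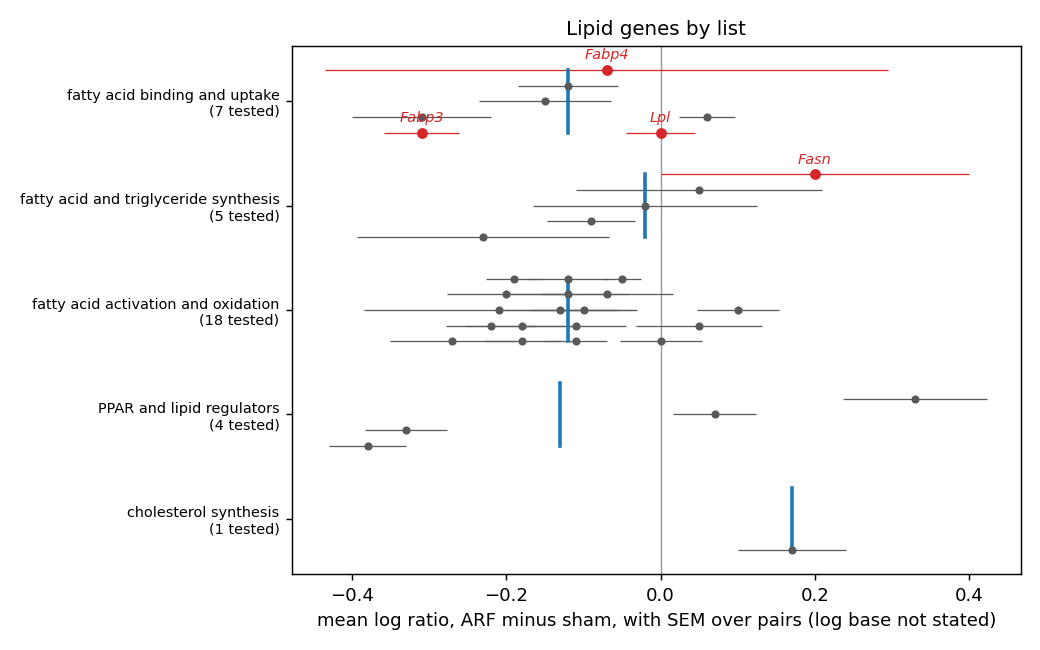
Mean log ratio, ARF minus sham, with its standard error over pairs, for each tested gene of 5 lipid lists; the members are red and blue bars are list medians. Most genes of binding and uptake and of oxidation lie below 0 (both medians -0.12), and Fabp4 and Fasn have the wide error bars of genes that change sign between pairs.

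Fabp3 was the only member with all 6 pairs, so only its pattern could be compared with other clones. Of 419 clones with 1 gene symbol and all 6 pairs, the most similar were Grn (progranulin, Pearson r = 0.944), Mfn2 (a mitochondrial fusion protein, r = 0.925) and Map1lc3b (an autophagosome protein, r = 0.915), and 18 had r over 0.8. In each of these clones D and E were the highest pairs, as in Fabp3. The order of the remaining pairs was not shared: the lowest was B for Mfn2 and F for Map1lc3b. The means of Grn, Mfn2 and Map1lc3b were 0.10, -0.07 and -0.03, so they did not share the lower level of Fabp3, and the 6 points share rats and arrays. These clones were picked as the highest of 419 correlations over 6 points. How high such correlations run by chance was not tested, so no link to Fabp3 is read from them.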

How the data were processed

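The deposited values are log ratios of the 2 channels, which the labels call normalized log values, naming ImaGene 4.1 for the raw data; log base, normalization method and direction are not given in the sources used here. The authors left 57.1% of cells empty, and array medians lay between -0.042 and 0.029. Rows 1152 apart hold the same clone, so the 4608 spots stand for 2304 clones (1521 of 1521 clones annotated on both rows had the same accession); duplicate spots were averaged. Gene symbols came from the platform annotation (1489 clones with 1 symbol, 32 with several, 783 with none), updated through RefSeq for GRCr8 (1483 matched).

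The sham-sham columns were put in register by exchanging adjacent blocks of 288 rows, which raised the mean correlation of where values are present from -0.011 to 0.488. A pair value needs both dye orientations. Pair values, dye effects and sham-sham arrays were each tested against 0 with limma 3.58.1 in R 4.3.3 (intercept, eBayes) over all clones with at least 4 values, with Benjamini-Hochberg adjustment and a threshold of 0.05. The labels name the rats of each pair, which share an array. The script was tested on simulated data. Precision is limited by the number of rats. Nothing in the labels says how the rats were assigned to pairs.

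The members and gene lists were chosen with earlier results of these data known. Besides the members, the genes named are, per list, those past the threshold and up to 4 others with the smallest p, and the 3 clones most like Fabp3; others are said to be named after their values were seen or serve as markers. Alternatives are given in the closing section.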

Additional observations from a re-analysis of the deposited data

Results flagged for a closer look

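Among the pair values and sham-sham values of the named genes, 1 set had a value far from the rest: Hadhb in pair A, at 0.13, against -0.42 to -0.27 in the other 5 pairs. About 1 in 20 such sets would be marked by chance, and 42 were looked at.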

How the results depend on the processing

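The count of clones past the threshold for ARF minus sham (9) moved with most choices. It changed less from the arrays with sham in Cy5 (10), from the first spot alone (7) and with clones in all 6 pairs (6). It was 15 with arrays centred on their medians, 5 with pairs on 1 array kept, 28 from the arrays with sham in Cy3, 4 with clones in at least 3 pairs and 0 with a trended, robust variance (limma; 119 at an unadjusted p under 0.05). Leaving out 1 pair gave 0 to 19 (0 without E, 0 without F, 1 without B, 4 without A, 18 without D, 19 without C), and without E and F 68 and 59 clones had an unadjusted p under 0.05. The 12 arrays fitted with the pair as a replicate block (estimated correlation 0.29) gave 42 of 947 clones. A fit without the pairing gave 2 of 833 clones. It was not a refit of those arrays: it compared ARF with sham rats on 1 level per rat, estimated by least squares from all 18 arrays. Fabp3 kept its mean of -0.31 in both fits, and passed with the block and not without the pairing. The cause of these shifts was not tested.

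Fabp3 was -0.19 from the arrays with sham in Cy3 and -0.43 from those with sham in Cy5; it passed in 5 of 10 settings other than leaving out a pair. Lpl was -0.13 and 0.14. Fabp3 averaged 0.02 over 2 sham-sham arrays in the deposited row order, against 0.17. The sham-sham count (24) was 10 from the first spot alone and 0 to 32 with 1 array left out (0 without R4 or R5, 4 without R3, 13 without R6). The dye effect count (152) was 55 to 175 with 1 pair left out (73 without C, 55 without D, 61 without E). Fabp4, Fasn and Lpl rest on 4 pairs each. With 1 pair left out, Fabp4 ran from -0.34 to 0.21, Fasn from 0.11 to 0.39 and Lpl from -0.04 to 0.04. How weak the missing spots were is not known from ratios.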
